A study of Solanum tuberosum with 22 samples.

Results

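Transcripts of 5 potato (Solanum tuberosum) genes of S-adenosylmethionine and polyamine synthesis were followed through tuber development. They were found by the gene symbol or synonym in the annotation of the array: METK1, METK2 (gene symbol LOC102578902), AdoMetDC (LOC102601725, also SAMDC and TUB13), SpdSy (LOC102587738) and ARD. Together they had 44 of 32448 spots, in pairs of duplicate spots of the same cDNA clone, which gave 22 clones. METK1 had 9 clones, AdoMetDC 9, METK2 2, SpdSy 1 and ARD 1. Clones of a gene are lettered A to I here, and clones and spots of a gene are not replicates of a condition. Another clone was listed with AdoMetDC and a further gene and was not counted. The gene table places these genes on no chromosome, so no positions are given.

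S-adenosylmethionine synthetase, which METK genes encode, joins methionine to the adenosine of ATP. The product is the methyl donor of most methylation reactions and the precursor of ethylene. S-adenosylmethionine decarboxylase (AdoMetDC) turns it into the aminopropyl donor with which spermidine synthase (SpdSy) converts putrescine to spermidine, a polyamine known from growing and dividing plant tissues. The sulphur-containing remainder returns to methionine through the salvage cycle, in which ARD, acireductone dioxygenase, catalyses a late step.

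Each array compared a sample with a pooled reference, labelled in different dyes, and its values were read as log2 ratios of sample to pool. In vitro, microtubers were collected 2, 5, 10, 20 and 30 d after tuber induction from cultures on hormone-free medium rich in sucrose, kept at 20 degrees C in the dark, with separate microtuber populations as the 2 replicates. In vivo, stolons without tubers and tubers of 1-5, 6-10, 11-15, 16-25 and 26-35 mm came from growth chamber plants, and the 2 replicates were sets of 10 plants grown one after the other. The pools held RNA of all stages of their own system, so levels cannot be set against each other between systems or between genes. The cultivar was not given in the labels used here, and the labels print the culture conditions beside the in vivo samples as well. Stolon RNA alone was amplified to cRNA before labelling, so stolon and amplification cannot be told apart. The samples were whole organs, in which fewer cells of a type and less RNA per cell cannot be told apart.

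In vivo, the replicates carried opposite dyes and their deposited ratios correlated between -0.63 and -0.36 across spots of the same class, so the values of replicate 2 were multiplied by -1. This direction is only likely, and with the other choice every in vivo sign given here is swapped. With the direction used, spots of the tuber protease inhibitor API lay between -8.32 and -3.06 in stolons and between 2.00 and 2.95 in tubers of 26-35 mm, but such genes helped to choose it. In vitro replicates correlated between 0.60 and 0.79. Their values were left as deposited, although all in vitro samples carried the sample dye of in vivo replicate 2. The in vitro direction is thus not settled by the labels either, and with the other choice every in vitro sign is swapped. Values were present for 52.0% to 65.7% of spots on in vitro arrays and 33.1% to 48.9% on in vivo arrays. Stolon arrays were flat, with a median absolute log2 ratio of 0.16 and 0.30 over all spots against 0.43 to 0.80 on tuber arrays. Precision is limited by the small number of arrays.

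METK1 transcript rose during microtuber culture and METK2 fell slightly. As the mean over those of its 17 tested spots with a value, METK1 lay at -1.28, -0.51, 0.18, 0.92 and 0.86 at 2, 5, 10, 20 and 30 d in replicate 1. There 6 of the 9 clones had values at 20 d and 7 at 30 d, so these 2 means are over fewer spots. In replicate 2 it lay at -1.32, -0.43, 0.23, 0.53 and 0.40. The 2 d samples were lowest in both populations, and the values at 20 and 30 d lay above all those at 2 and 5 d without overlap. Here and below, the share of all genes or spots whose groups do not overlap is not given, so such separation may be common. The stage means were -1.30 ± 0.03, -0.47 ± 0.06, 0.21 ± 0.04, 0.73 ± 0.28 and 0.63 ± 0.32 (SD, n = 2). The late times (20 and 30 d) exceeded the early times (2 and 5 d) by 1.56 ± 0.12 on the log2 scale (SE of the limma fit), or 2.96-fold (adjusted p = 2.29e-06). This change was 1.79 in replicate 1 and 1.34 in replicate 2.

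Between neighbouring times, METK1 gained 0.83 from 2 to 5 d (adjusted p = 0.0103) and 0.68 from 5 to 10 d (adjusted p = 0.0418). The step from 10 to 20 d was 0.52 (adjusted p = 0.0580) and that from 20 to 30 d was -0.10 (adjusted p = 0.981), neither past the threshold of an adjusted p under 0.05. Whether the steps differ from each other was not tested. All 17 METK1 spots had positive changes at both of the first steps, of 0.15 or more and 0.48 or more. At the first step 11 of 17 were called higher, where 3.41% of all 19600 spots tested were. At the next step 2 of 17 were called higher, where 0.74% were. For comparison, 19.3% and 7.9% of all 405 gene means were called in either direction at these steps.

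All 17 tested METK1 spots were higher at the late times, with changes of 0.66 to 1.87 and a median of 1.49. Over all spots tested 48.5% were called in this comparison, 24.2% as higher and 24.3% as lower, with a median change of 0.02, and of gene means 67.7% were called. Calls were therefore common in this comparison, and the median absolute change over all spots was 0.31. The clones ran close together from 5 to 10 d, with a range of -0.61 to -0.39 at 5 d and 0.04 to 0.33 at 10 d in replicate 1. Clone C, which changed most, went from -1.51 and -1.45 at 2 d to 1.24 and 0.65 at 20 d. Clone E was the flattest, going from -0.79 and -0.41 at 2 d to 0.18 at 20 d in replicate 2, with no value at 20 and 30 d in replicate 1. Its tested spot changed by 0.66 ± 0.14 (adjusted p = 0.00588), and its other spot had too few values to be tested.

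METK2 moved the other way by less. As the mean of its 4 spots it lay at 0.25, -0.04, -0.15, -0.44 and -0.48 over the 5 times in replicate 1. In replicate 2 it lay at 0.07, 0.03, -0.15, -0.17 and -0.27. The late samples lay below the early ones in both populations and the groups did not overlap, a separation whose share over all genes is not given. The 4 spots, from 2 clones, changed by -0.46 to -0.35 and were all called lower, as 24.3% of all spots were. The gene mean changed by -0.42 ± 0.09, or 1.33-fold lower (adjusted p = 0.00249). Steps between neighbouring times ranged from -0.16 to -0.07 as gene means and did not pass, nor did any METK2 spot pass at a single step. In the test for any difference among the 5 times 1 of 4 METK2 spots passed, against 17 of 17 METK1 spots and 36.8% of all spots.

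The contrast of the METK genes was taken within each array, as METK1 minus METK2. In vitro the difference was -1.53 and -1.39 at 2 d, -0.47 and -0.46 at 5 d, 0.33 and 0.38 at 10 d, 1.36 and 0.70 at 20 d and 1.34 and 0.68 at 30 d, for replicates 1 and 2. It was negative at 2 and 5 d and positive from 10 d on, in both populations. Its mean was 1.02 ± 0.38 (SD, n = 4) at the late times and -0.96 ± 0.58 (SD, n = 4) at the early times. Each n = 4 is 2 times in 2 populations, so these SDs include differences between times and are not a spread of replicates. The 1.98 between the 2 means had p = 0.0286 in an exact two-sided permutation test over samples, the smallest p that 4 arrays against 4 allow. Permuted within replicates the exact p was 0.0556, again the smallest possible. Since each value is relative to the pool, the change of sign at 10 d does not say which gene had more transcript.

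**Figure D1:**
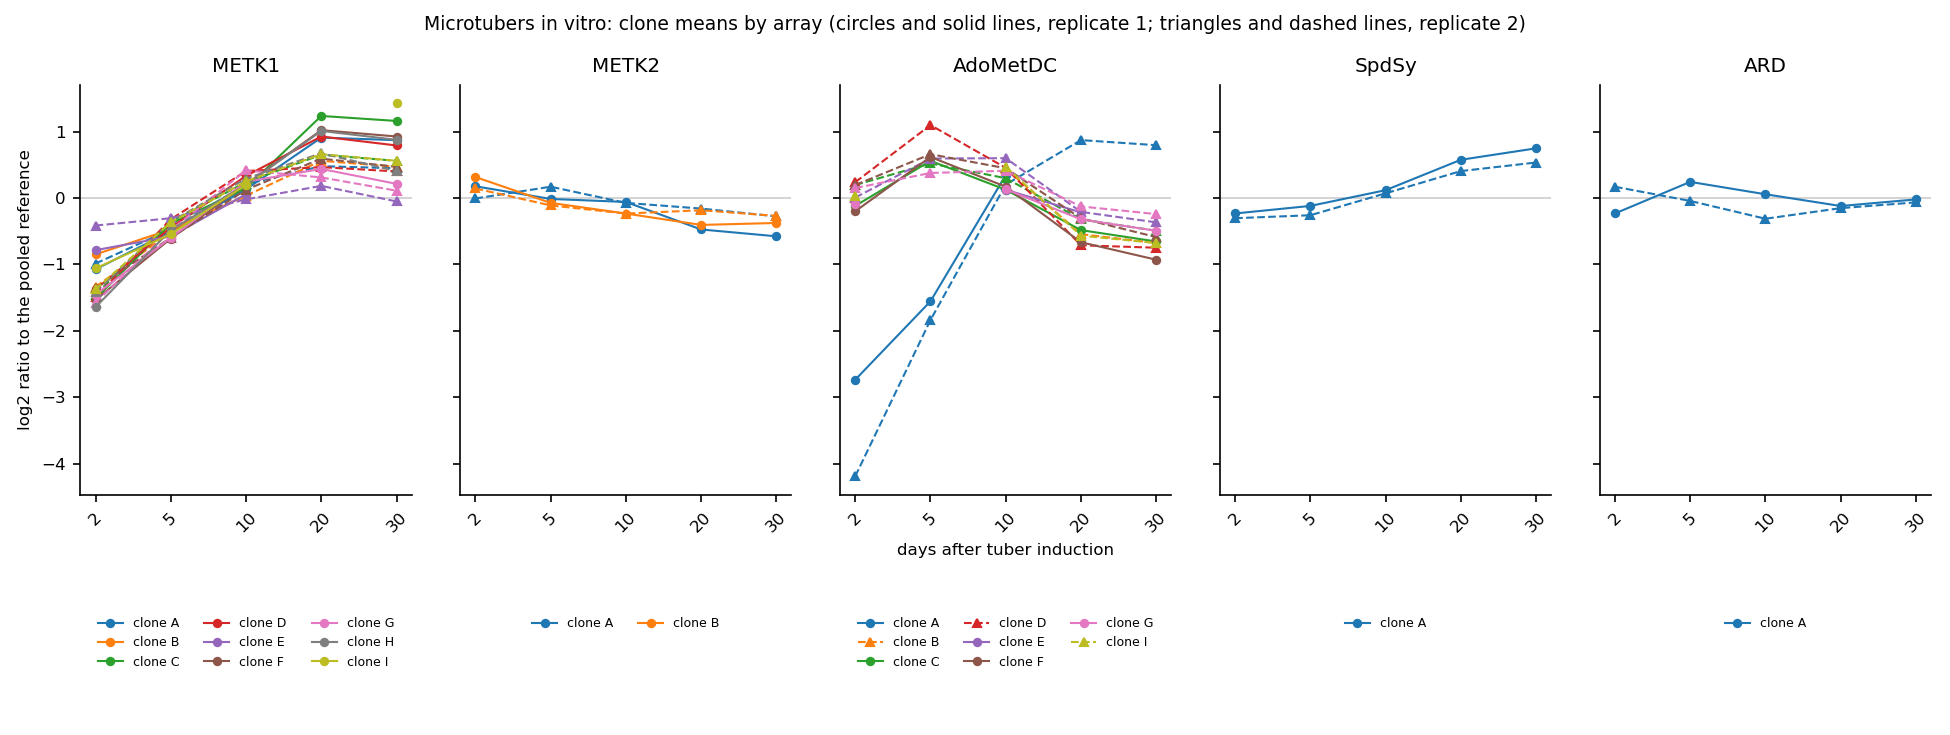
Log2 ratio to the pooled reference (y axis) of each clone of the 5 genes in microtubers by days after tuber induction (x axis, equally spaced). Points are means of the duplicate spots of a clone on an array, with circles and solid lines for replicate 1 and triangles and dashed lines for replicate 2. METK1 clones climb from between -1.64 and -0.41 at 2 d, METK2 drifts down, and AdoMetDC clone A starts at -2.74 and -4.19 while the other AdoMetDC clones peak at 5 to 10 d.

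The next enzyme, AdoMetDC, was described differently by its clones. Clones C, F and G, which could be tested, were highest at 5 or 10 d and lowest at 30 d. Clone F lay at -0.20, 0.62, 0.17, -0.67 and -0.93 over the 5 times in replicate 1. In replicate 2 it lay at 0.20, 0.66, 0.45, -0.31 and -0.59. Its late values lay below all its early ones. The 6 tested spots of these 3 clones changed by -0.96 to -0.49 between early and late times and were all called lower, with adjusted p between 1.89e-04 and 0.0139. Of all spots tested 24.3% were called lower. Clones B, D, E and I had too few values to be tested, and in replicate 2 their values at 20 and 30 d, from -0.75 to -0.21, lay below all their values at 2 and 5 d, from -0.01 to 1.10. Clone H had no in vitro value.

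Clone A of AdoMetDC ran against the others. It lay at -2.74, -1.56 and 0.34 at 2, 5 and 10 d in replicate 1, with no values at 20 and 30 d. In replicate 2 it lay at -4.19, -1.84, 0.20, 0.87 and 0.80. The 2 d samples were the lowest in both populations. Its 1 tested spot was 3.37 ± 0.32 higher at the late times (adjusted p = 8.25e-05), a late value that rests on replicate 2, and it rose by 1.73 from 2 to 5 d (adjusted p = 0.0380). Duplicate spots of clone A differed by a median of 0.08, so both spots show this course. Averaged over those of the 7 tested spots with a value on each array, AdoMetDC changed by -0.24 ± 0.12 (adjusted p = 0.104), a mean of opposite clones. In replicate 1 this mean lacks clone A at 20 and 30 d and clone G at 5 d, so its clones differ between arrays. With the replicate as a block that mean passed (adjusted p = 0.0403), as did 70.1% of gene means. Over the 4 spots of clones C and F, which had a value on every array, it changed by -0.86 ± 0.11 (adjusted p = 6.72e-05). Of the steps of the gene mean, those that passed were 0.64 from 2 to 5 d (adjusted p = 0.0300) and -0.56 from 10 to 20 d (adjusted p = 0.0487). The first includes the rise of clone A. The second does not compare the same spots, as clone A, which rose from 0.20 to 0.87 in replicate 2, drops out of replicate 1 at 20 d.

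SpdSy, which makes spermidine from the product of AdoMetDC, rose with culture time. Its clone lay at -0.23, -0.12, 0.12, 0.58 and 0.75 over the 5 times in replicate 1. In replicate 2 it lay at -0.30, -0.26, 0.07, 0.41 and 0.53. Each later time had the higher value in both populations. Both spots were called higher, as 24.2% of all spots were, by 0.78 and 0.87. The gene mean was higher by 0.79 ± 0.08, or 1.73-fold (adjusted p = 2.17e-05). Of the steps, that from 10 to 20 d passed, with 0.40 (adjusted p = 0.0475), when 18% of gene means passed in either direction. A difference in timing between SpdSy and METK1 was not tested.

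ARD, of methionine salvage, showed no difference past the threshold in culture. Its clone lay at -0.23, 0.24, 0.06, -0.12 and -0.02 in replicate 1 and at 0.17, -0.04, -0.31, -0.15 and -0.07 in replicate 2. At 2 d the replicates lay on opposite sides of 0, and early and late values overlapped. Neither of its 2 spots passed, and the gene mean changed by -0.12 ± 0.12 (adjusted p = 0.376). In all 30 of the 32 member spots tested in vitro were called, 20 higher and 10 lower. Over all spots tested 48.5% were called, 24.2% higher and 24.3% lower.

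Other genes around methionine were taken from a list of 49 symbols, of which 3 genes with 22 spots were on the arrays. CS-B, a cysteine synthase, which supplies the sulphur for methionine, was lower at the late times by the gene mean, -0.97 ± 0.07 (adjusted p = 2.10e-06), and on 10 of 10 spots. MS, methionine synthase, changed by -0.38 ± 0.12 (adjusted p = 0.0135), with 5 of 9 tested spots lower. In this comparison 24.3% of all spots were called lower, and 67.7% of gene means were called in either direction. TS, threonine synthase, which draws on the same precursor as methionine, changed by 0.03 ± 0.08 (adjusted p = 0.743), with 0 of 2 spots past the threshold. No gene of ethylene synthesis or of putrescine synthesis on the list was matched to spots.

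On the plant, METK1 values depended strongly on the replicate. Most clones lay near 0 in stolons, with medians of -0.01 and 0.24 over clones in replicates 1 and 2. In replicate 1 the clone medians were 0.13, 0.24, -0.54, -0.34 and -0.52 from 1-5 mm to 26-35 mm tubers, and single clones ranged from -2.65 to 0.83. In replicate 2 they were -1.10, -1.53, -2.62, -2.16 and -2.31, and clones ranged from -4.56 to -0.52. Thus in replicate 2 all 9 clones were negative in every tuber class, and the medians of replicate 2 minus replicate 1 over clones were -1.93 to -1.19 in the 5 classes. Replicate number also marks the dye and the plant set, and which of these goes with the offset cannot be told apart.

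Tubers differed from stolons by -1.20 ± 0.78 in the METK1 gene mean (adjusted p = 0.339, when 18% of gene means passed), with -0.27 in replicate 1 and -2.14 in replicate 2. Lower values were called on 3 of 16 tested spots, where 8.06% of all 10415 spots tested were called lower, 14.3% higher and 22.3% in either direction. With the replicate as a block the gene mean passed (adjusted p = 0.0419, when 42.8% of gene means did), with 8 spots lower and 2 higher. Over all spots this block called 39.6%, as 17.9% lower and 21.8% higher. It also covers the stolons, although their deviations from the class means correlated with those of same-numbered tubers at -0.47 to -0.37. Clone A lay at 0.15 and 0.32 in stolons and between -3.47 and -1.23 in tubers, and its spots changed by -2.67 ± 0.56 and -2.49 ± 0.52 (adjusted p = 0.0123 and 0.0122). Clone F changed most, by -3.39 ± 0.70 on its called spot (adjusted p = 0.0146). That spot had no value at 6-10 mm in replicate 1, and with the block it changed by -3.26 ± 0.40. The duplicate spot of clone F changed by -2.79 ± 1.27 (adjusted p = 0.153) and was not called without the block.

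METK1 clone E again stood apart from the other clones. In stolons it lay at -1.51 and -2.05, where the other clones lay between -0.05 and 0.33. In tubers it lay between 0.24 and 0.63 in replicate 1 and between -1.31 and -0.52 in replicate 2, above its stolon value in both sets of plants. Its spots differed by 1.59 ± 0.58 and 1.61 ± 0.62 between tubers and stolons (adjusted p = 0.0860 and 0.102), past the threshold only with the block, while the 14 other tested spots ranged from -3.39 to -0.83. The opposite signs of spots annotated to METK1 mean that the gene mean does not describe all of them.

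**Figure D2:**
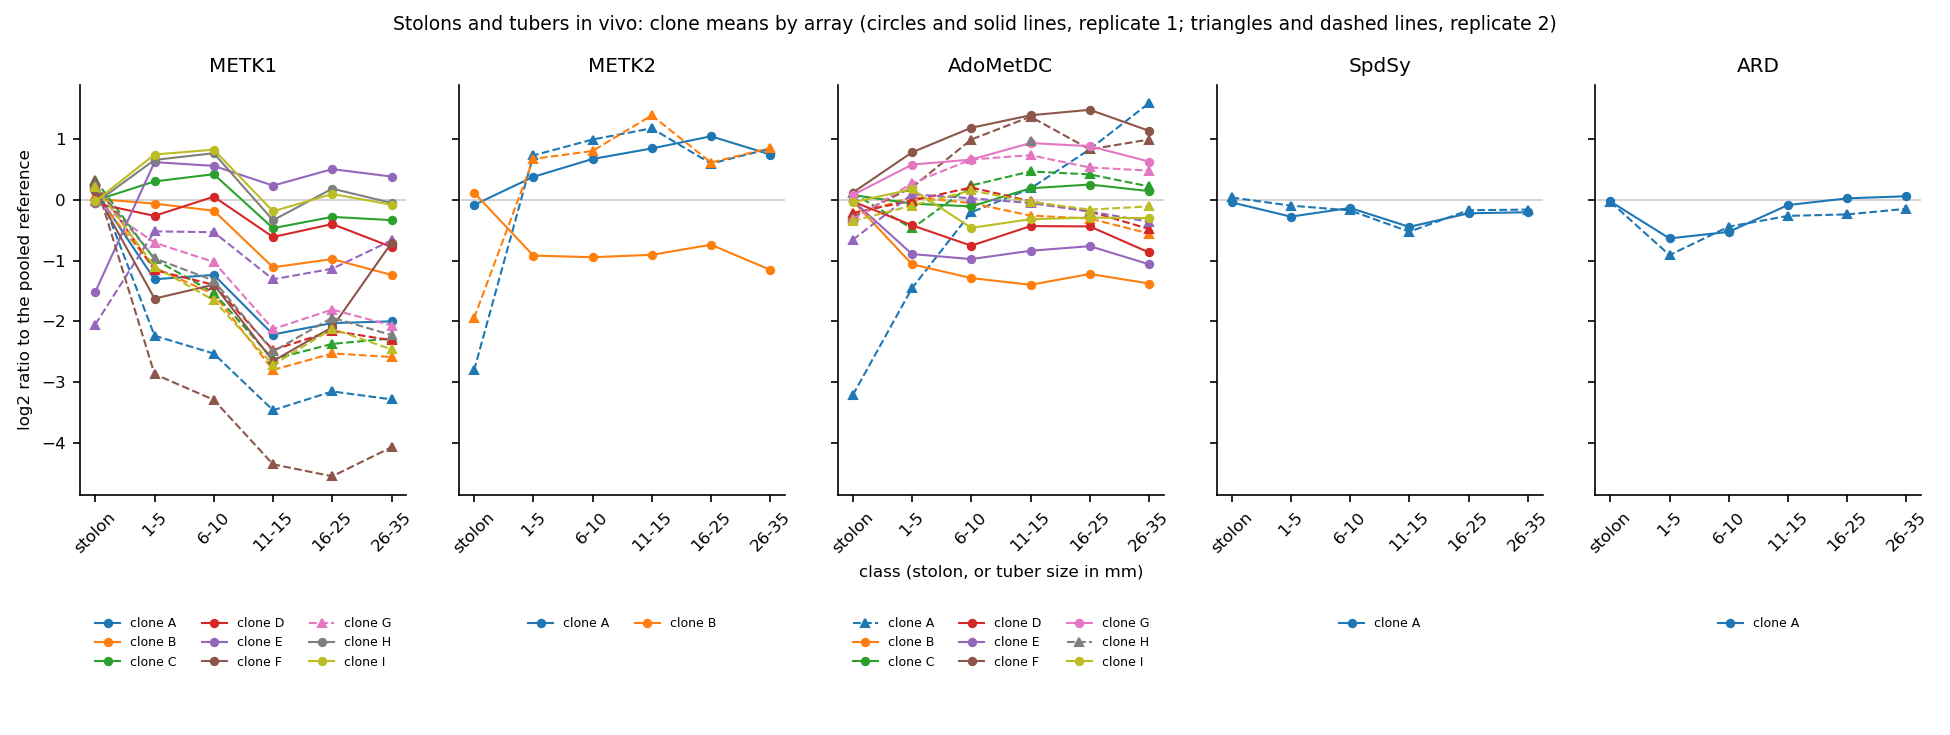
Log2 ratio to the pooled reference (y axis) of each clone in stolons and 5 tuber size classes (x axis, mm), with replicate 2 multiplied by -1. Symbols and lines are as for the microtubers. METK1 clones fan out below 0 in tubers of replicate 2, clone E starts at -1.51 and -2.05 in stolons, METK2 is low in the replicate 2 stolon sample, at -2.81 and -1.95, and SpdSy stays between -0.52 and 0.04.

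METK2 was higher in tubers than in stolons on clone A. This clone lay at -0.08 and -2.81 in stolons of replicates 1 and 2, at 0.38 to 1.05 in tubers of replicate 1 and at 0.60 to 1.18 in those of replicate 2. Stolon values lay below all tuber values, and the replicates were alike in tubers but not in stolons. Its spots differed by 2.20 ± 0.55 and 2.31 ± 0.59 (adjusted p = 0.0237 and 0.0269), where 14.3% of all spots were called higher. The differences were 0.80 and 0.84 in replicate 1 and 3.59 and 3.78 in replicate 2. The standard errors come from a common spread over all classes, while clone A had an SD of 1.93 in stolons and 0.07 to 0.32 in tubers (n = 2 each). They and the adjusted p therefore do not measure the disagreement of the stolon samples.

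Clone B of METK2 gave another picture in replicate 1. There it lay at 0.12 in stolons and between -1.15 and -0.74 in tubers, below the stolon value, whereas in replicate 2 it lay at -1.95 in stolons and between 0.62 and 1.40 in tubers. Its tested spot differed by 0.88 ± 0.87 (adjusted p = 0.508), with -1.01 in replicate 1 and 2.78 in replicate 2. The mean of the 3 tested METK2 spots differed by 1.80 ± 0.61 (adjusted p = 0.0747). With the block its adjusted p was 0.0503, and without the replicate 1 stolon sample the difference was 3.05 (adjusted p = 0.0112). Without the replicate 2 stolon sample it was 0.55 (adjusted p = 0.728), so the size rests on which stolon sample is kept.

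METK1 minus METK2 in vivo was -0.15 in the replicate 1 stolon sample and 2.49 in that of replicate 2. In tubers it ranged from -1.21 to -0.06 in replicate 1 and from -3.92 to -2.11 in replicate 2. The replicate 1 stolon value thus lay within the tuber range. Tubers averaged -1.83 ± 1.40 (SD, n = 10) and stolons 1.17 ± 1.86 (SD, n = 2), a difference of -3.00. The exact two-sided permutation test gave p = 0.0455, and p = 0.0833 when permuted within replicates. The 10 tuber arrays came from 2 sets of plants, and same-numbered tuber samples deviated together (r of 0.85 to 0.93). The SD with n = 10 is therefore not a spread of independent replicates. Both permutations treat tuber arrays of a plant set as independent, so neither p can decide whether tubers differ from stolons. Without the replicate 2 stolon sample the difference was -1.68 (exact p = 0.455), where 11 assignments could not give less than 0.0909. In large (16-35 mm) against small (1-10 mm) tubers it differed by -0.83 (exact p = 0.400, and 0.0556 within replicates, the smallest possible). That value was -0.40 without the 26-35 mm sample of replicate 2 and -1.28 without that of replicate 1.

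**Figure D3:**
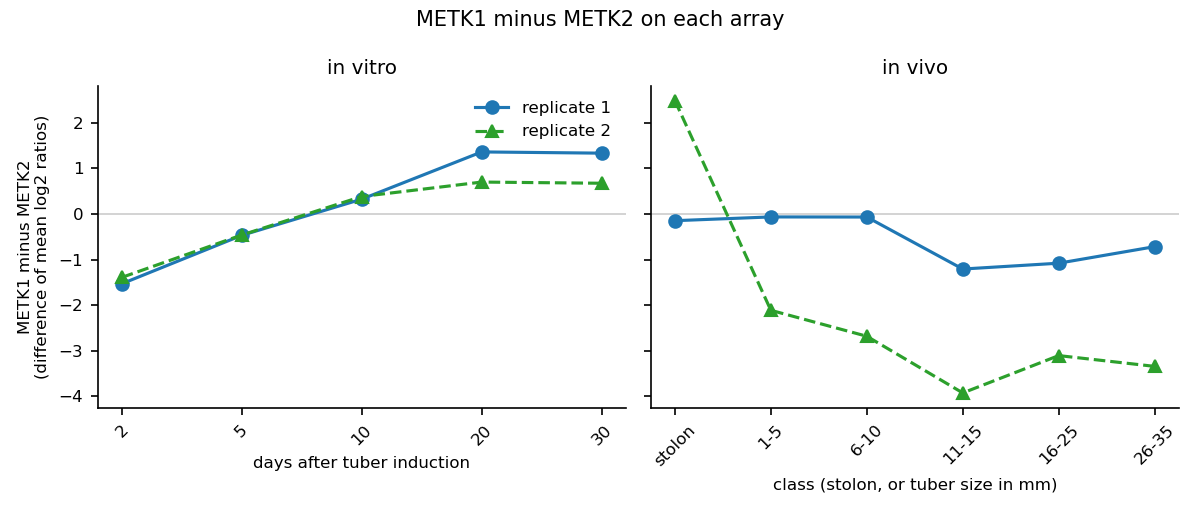
METK1 minus METK2 (y axis, difference of mean log2 ratios over tested spots) on each array, in vitro by days after tuber induction (left) and in vivo by class (right), with circles for replicate 1 and triangles for replicate 2. In vitro both lines climb from -1.53 and -1.39 to above 0, and in vivo the replicate 2 line drops from 2.49 in the stolon sample while the replicate 1 line stays between -1.21 and -0.06.

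AdoMetDC clones split in tubers too. Of the 14 tested AdoMetDC spots 3 were called (21.4%), all higher and all of clones F and G, and of all 37 member spots 8 were called (21.6%), near the 22.3% of all spots. Clone F lay at 0.12 and -0.28 in stolons, between 0.79 and 1.49 in replicate 1 tubers and between 0.21 and 1.38 in replicate 2 tubers. All its tuber values lay above both stolon values. Its spots differed by 1.02 ± 0.25 and 1.23 ± 0.27 (adjusted p = 0.0224 and 0.0158). Clone G lay at 0.08 and -0.32 in stolons and between 0.28 and 0.94 in tubers, and differed by 0.68 ± 0.21 and 0.84 ± 0.22 (adjusted p = 0.0543 and 0.0299).

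The other tested AdoMetDC clones did not pass. Clones B, D and E lay between -0.02 and -0.01 in stolons of replicate 1 and between -1.40 and -0.42 in its tubers, but between -0.66 and -0.21 in stolons of replicate 2 and between -0.55 and 0.21 in its tubers. Their 6 spots changed by -0.63 to -0.17, with opposite signs in the replicates for most of them. Clones C and I differed by -0.01 to 0.11. The mean of all 14 tested spots differed by 0.14 ± 0.24 (adjusted p = 0.708), and 7 spots were positive and 7 negative. Clone A had values in replicate 2 only, of -3.22 in stolons and -1.45, -0.20, 0.19, 0.84 and 1.60 from the smallest to the largest tubers. It climbed through all classes, as no other AdoMetDC clone did, and could not be tested.

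SpdSy changed little on the plant. It lay at -0.04 and 0.04 in stolons, was lowest at 11-15 mm, with -0.44 and -0.52, and lay between -0.27 and -0.09 in the other tuber classes. The replicates lay furthest apart at 1-5 mm, with -0.27 and -0.09. Tubers differed from stolons by -0.24 ± 0.18 (adjusted p = 0.379) and large from small tubers by -0.02 ± 0.18 (adjusted p = 0.999). The change of METK1 and SpdSy in culture was not tested here against that on the plant.

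ARD was lowest in the smallest tubers. It lay at -0.02 and -0.03 in stolons and at -0.63 and -0.91 at 1-5 mm. It then lay at -0.52 and -0.44 at 6-10 mm, -0.08 and -0.26 at 11-15 mm, 0.03 and -0.24 at 16-25 mm and 0.06 and -0.14 at 26-35 mm. In both sets of plants the 2 smallest classes had the lowest values, and no value of the 2 largest classes overlapped them. The step from stolon to 1-5 mm was -0.74 ± 0.26 (adjusted p = 0.140), and large tubers differed from small ones by 0.55 ± 0.20 (adjusted p = 0.472). With the replicate as a block the second difference passed (0.55 ± 0.10, adjusted p = 0.00682, when 32.6% of gene means did), with 0.62 in replicate 1 and 0.48 in replicate 2.

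Between large and small tubers the limma fit without a block called 0 of 37 member spots and 0% of 10597 spots. An unadjusted p under 0.05 was found for 679 spots, among them the 2 ARD spots, and 1.97% of gene means were called. Same-numbered tuber samples deviated together (r of 0.85 to 0.93), and the fit with the replicate block called 19.6% of spots. Among the members these were 15 spots, 13 of METK1 as lower and 2 of ARD as higher, where 10.5% and 9.05% of all spots were called lower and higher. All 16 METK1 spots had lower means in large tubers, by 0.18 to 1.12 on the log2 scale, and 15 of them in both replicates. The METK1 gene mean differed by -0.77 ± 0.77 without the block (adjusted p = 0.999) and by -0.77 ± 0.13 with it (adjusted p = 0.00435), with -0.59 in replicate 1 and -0.94 in replicate 2. Without the block and without single arrays it ranged from -1.24 (without 26-35 mm replicate 1) to -0.29 (without 26-35 mm replicate 2). The spot not lower in both replicates was one of clone F, with 1.06 in replicate 1 tubers of 26-35 mm, where its duplicate had -2.47. METK2, at 0.06 ± 0.35, and AdoMetDC, at -0.01 ± 0.23, passed with neither fit.

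**Figure D4:**
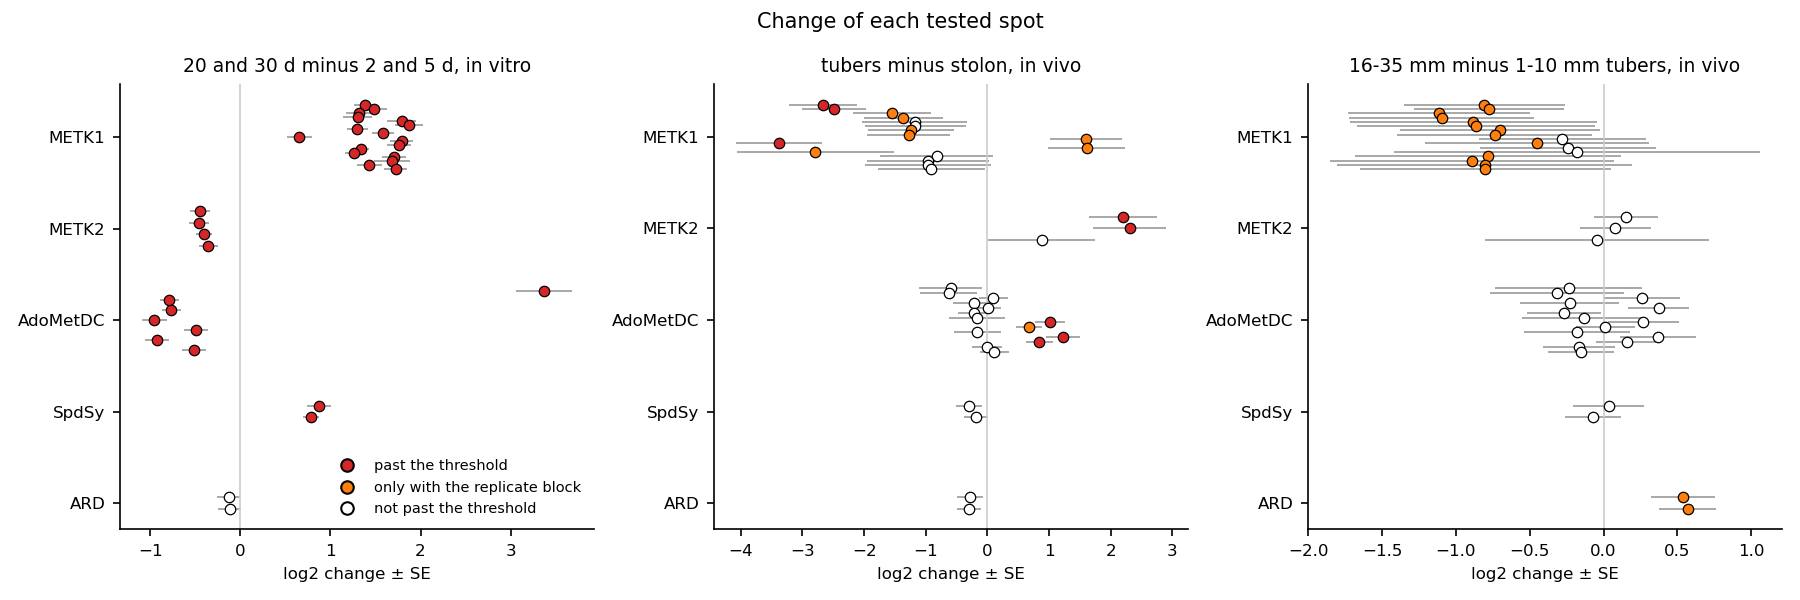
Log2 change with its standard error (x axis) of each tested spot, by gene (y axis), for late against early microtubers, tubers against stolons and large against small tubers. Red points passed an adjusted p under 0.05, orange points only with the replicate as a block, and white points neither. METK1 spots lie between 0.66 and 1.87 in culture, while between tubers and stolons they spread from -3.39 to 1.61.

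Of the other methionine genes, MS and TS had 0 spots past the threshold between tubers and stolons, with gene means of 0.95 ± 0.66 (adjusted p = 0.350) and -0.04 ± 0.30 (adjusted p = 0.943). CS-B differed by 0.35 ± 0.27 (adjusted p = 0.379), with 1 spot higher and 2 lower of 10. Of all spots tested between tubers and stolons 14.3% were called higher, 8.06% lower and 22.3% in either direction. No spot of the 3 genes passed between large and small tubers in the fit without the block, where 0 of all 10597 spots passed. In the test for any difference among the 6 classes 0 of 37 member spots passed, and 3.86% of all spots.

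The genes whose pattern was most like METK1 and METK2 were ranked by Pearson r between gene means, as a description over arrays that share stages and reference. Over the 10 in vitro arrays and 374 genes with every value, METK1 was most like LOC102582373 (r = 0.990), LOC102577483 (0.986) and dnaJ (0.981). METK2 was most like LOC102577768 (0.976), 14-3-3 (0.966) and LOC102605882 (0.965). Over the 12 in vivo arrays and 326 genes, METK1 was most like LOC102582373 (0.981), LOC102593187 (0.976) and GAL83 (0.974), so LOC102582373 headed both METK1 lists. METK2 was most like LOC102590714 (0.931), LOC102577562 (0.928) and STK (0.926).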

How the data were processed

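The deposited values are log2 ratios of sample and pooled reference on 2-colour arrays. The submitters' processing notes name limma without a version, while the background correction, normalization, spot filter and order of the ratio that they used are not stated. Values were used as deposited, with in vivo replicate 2 multiplied by -1. Gene names came from the platform annotation, and all 430 genes with spots of their own matched the SolTub_3.0 gene table. Testing required a value on 80% or more of a fit's arrays and 1 or more per group, which 32 of 44 member spots met in vitro and 37 in vivo.

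Each system was fitted over all its stages, and large against small tubers over the 10 tuber arrays. The fits were least squares with moderated statistics (limma 3.58.1, R 4.3.3) that handle missing values exactly, tested on simulated data. The simulated noise was independent between arrays, and only the fit without a block was run on it. It therefore does not test the p-values where same-numbered samples deviate together. The Benjamini-Hochberg adjustment ran over all spots tested, or over all gene means, with a threshold of 0.05. A gene mean is the mean of a gene's tested spots that have a value on the array, so its spots can differ between arrays. Where a fit lacks an array for a spot, the other replicate carries that stage. The replicate number marks a microtuber population or plant set, and in vivo also the dye, so it pairs the samples. Deviations of same-numbered samples correlated over 0.1 in 4 of 10 in vitro pairs, 10 of 10 tuber pairs and 0 of 5 stolon and tuber pairs. Alternatives were normalization, the filter, the replicate block, the summary over spots and leaving out each array. Pathway genes were those whose symbol or synonym was on a fixed list, and genes most like METK1 or METK2 were the 3 with the highest r. The genes followed and the lists were chosen with earlier results of these data known. Sequences of the clones were not used here.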

Additional observations from a re-analysis of the deposited data

How the results depend on the processing

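In culture, the count of called member spots stayed between 20 and 32 over 16 alternatives. Of all spots, the main fit called 48.5% and the replicate block 49.4%. The METK1, METK2 and SpdSy gene means and METK1 minus METK2 kept their direction over 17 alternatives. Their calls were kept, except that METK1 minus METK2 had an exact p of 0.0556, the smallest possible, when permuted within replicates. The AdoMetDC gene mean in culture passed in 11 of 17, with -0.86 to -0.08. For tubers against stolons 16 member spots were called with the replicate block, and 0 to 8 without single arrays, with 2 without stolon replicate 1 and 0 without stolon replicate 2. METK1 minus METK2 ranged from -4.32 to -1.68 without single arrays (exact p of 0.0364 to 0.455), and was -3.00 (p = 0.0833) when permuted within the replicate block. These p-values for tubers against stolons treat tuber arrays of a plant set as independent, although same-numbered tuber samples deviated together. The METK2 gene mean ranged from 0.55 to 3.05 without single arrays. For large against small tubers 15 spots were called with the replicate block and 0 without single arrays. Of all spots, the block called 19.6% in this comparison and 39.6% between tubers and stolons. Between large and small tubers METK1 minus METK2 ranged from -1.28 to -0.40 without single arrays. Gene means near 0 turned sign. AdoMetDC between tubers and stolons was -0.014 as the median over spots and -0.017 to 0.291 without single arrays. Between large and small tubers, METK2 was -0.059 after quantile normalization and -0.14 to 0.27 without single arrays, AdoMetDC 0.13 with values on 50% of arrays and -0.15 to 0.11 without single arrays, and SpdSy -0.096 to 0.026 without single arrays. Causes were not tested.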

Other observations

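The clone listed with AdoMetDC and a further gene, which was counted with neither, followed AdoMetDC clones F and G. Its spots were lower at the late culture times by -0.98 ± 0.13 and -0.94 ± 0.13 (adjusted p = 3.40e-04 and 4.64e-04) and higher in tubers than in stolons by 0.82 ± 0.25 and 0.94 ± 0.26 (adjusted p = 0.0472 and 0.0355).

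AdoMetDC clone A was compared with the gene means after its values had been seen. Over its 8 in vitro arrays it was most like LOC102587659 (r = 0.984), and r with METK1 was 0.974. Over its 6 in vivo arrays, all of replicate 2, it was most like the protease inhibitor API (r = 0.991), and r with METK1 was -0.931. These values are descriptions over few arrays that share a reference.

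If the reference were an equal pool of the stages, the linear ratios of a spot would average 1 over the stages. The METK1 clones averaged 0.93 to 1.36 in vitro. In vivo they averaged 0.44 to 1.23 in replicate 1 and 0.27 to 0.52 in replicate 2, where the median of all spots was 1.03. With the other direction replicate 2 averaged 2.21 to 13.1. METK1 in replicate 2 thus lay away from 1 with either choice, and the cause was not tested.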
